A study of Mus musculus with 32 samples.

Results

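The genes described here encode the subunits of protein kinase A, namely the catalytic subunits Prkaca and Prkacb, the type I regulatory subunits Prkar1a and Prkar1b and the type II regulatory subunits Prkar2a and Prkar2b, together with Akap5, a scaffold that anchors the kinase at synapses. They were chosen by name, and all 7 were present among the 44081 genes of the 3′UTR count table, with 14 of its 74532 3′ end features. The 7 genes were among the 10880 that entered the comparison of compartments, a set limited to those counted in 16 or more libraries.

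Hippocampal neurons were taken from C57BL/6 mouse embryos at embryonic day 18 and kept in primary culture for 15 days, and the dendrites and the soma of each of 16 neurons were then drawn into separate tubes with a micropipette. This gave 32 libraries, 16 of dendrites and 16 of somas, paired by neuron, with no treatment or genotype that differed between them. RNA with a poly-A tail was amplified as aRNA, an antisense RNA amplification by in vitro transcription that keeps mostly the 3′ part of a transcript, in 3 rounds for neurons 1 to 4 and in 2 rounds for the other 12. Per the paper's methods the neurons came from several cultures and days. The labels do not say how many embryos or cultures the neurons came from, so the p-values measure the spread between these 16 neurons.

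Protein kinase A is a tetramer in which a pair of regulatory subunits holds a pair of catalytic subunits inactive until cyclic AMP (cAMP) binds the regulatory subunits. Type I holoenzymes are largely soluble, while type II holoenzymes are held at fixed places in the cell by A-kinase anchoring proteins, such as MAP2 on dendritic microtubules and AKAP5 at the postsynaptic membrane. In hippocampal dendrites the kinase phosphorylates glutamate receptors and ion channels, and its signaling is needed for long-lasting synaptic potentiation.

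On GRCm38 the genes lie at chr8:83972993-83996443 on the plus strand (Prkaca, ENSMUSG00000005469), chr3:146729574-146812990 on the minus strand (Prkacb, ENSMUSG00000005034), chr11:109649405-109669656 on the plus strand (Prkar1a, ENSMUSG00000020612), chr5:139017306-139150001 on the minus strand (Prkar1b, ENSMUSG00000025855), chr9:108689314-108750436 on the plus strand (Prkar2a, ENSMUSG00000032601), chr12:31958476-32061296 on the minus strand (Prkar2b, ENSMUSG00000002997) and chr12:76324891-76334153 on the plus strand (Akap5, ENSMUSG00000021057). Prkar1b overlaps the transcript Gm15672 on the same strand, which had 825 reads in the table, so its counts are uncertain to that extent.

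Libraries held 646521 to 6954420 counted 3′UTR reads in dendrites and 925525 to 21169974 in somas, with at least 10 reads for 1570 to 9871 genes in dendrites and 6041 to 12185 in somas. The dendrites of neurons 15 and 16 stood apart, with 1570 and 2485 such genes from 2235244 and 1736725 reads. Levels are given below as reads per 1000000 counted reads (CPM) after TMM scaling, which is a share of a library and not an amount of RNA. The labels give the cells as hippocampal neurons and no neuron class. The summed CPM of 5 markers of GABAergic neurons was above that of 5 markers of glutamatergic neurons in 16 of 16 dendrites and 15 of 16 somas. Gad1, which makes GABA, had at least 10 reads in all 32 libraries with medians of 1722 CPM in dendrites and 6990 CPM in somas, Sst reached 10 reads in 0 libraries, and Slc17a7, the vesicular glutamate transporter, had medians of 47.0 and 4.24 CPM. Medians in dendrites and somas were 27.1 and 12.3 CPM for Camk2a, 10.8 and 14.0 CPM for Neurod6 and 21.2 and 43.1 CPM for Grin1. Astrocyte markers summed to medians of 209 CPM in dendrites and 192 CPM in somas with highest values of 1573 and 514 CPM. Oligodendrocyte markers summed to 24.9 and 23.1 CPM with highest values of 585 and 312 CPM, and microglial markers to 1.17 and 0.165 CPM with highest values of 384 and 8.88 CPM. The part of these cell classes in the results below was not tested.

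At a minimum of 10 reads, each of the 6 subunit genes was found in more dendrites than Akap5. At least 10 reads were counted for Prkar1a in 16 of 16 dendrites, for Prkaca and Prkar1b in 15 each, for Prkacb in 14, for Prkar2a in 13 and for Prkar2b in 11. Akap5 had at least 10 reads in 6 of 16 dendrites. At a minimum of 1 read the contrast with Prkar2b nearly vanished, with Akap5 in 10 dendrites and Prkar2b in 11, while the other members were in 14 to 16. In somas each of the 7 genes reached 10 reads in 16 of 16 libraries, apart from Prkar2b with 15. The median over all genes tested was 6 dendrites and 13 somas. With every library thinned to 646521 reads, the depth of the smallest one, the subunit genes were still found in 16 (Prkar1a), 15 (Prkaca and Prkar1b), 14 (Prkacb), 12 (Prkar2a) and 10 (Prkar2b) dendrites and Akap5 in 5.

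**Figure D1:**
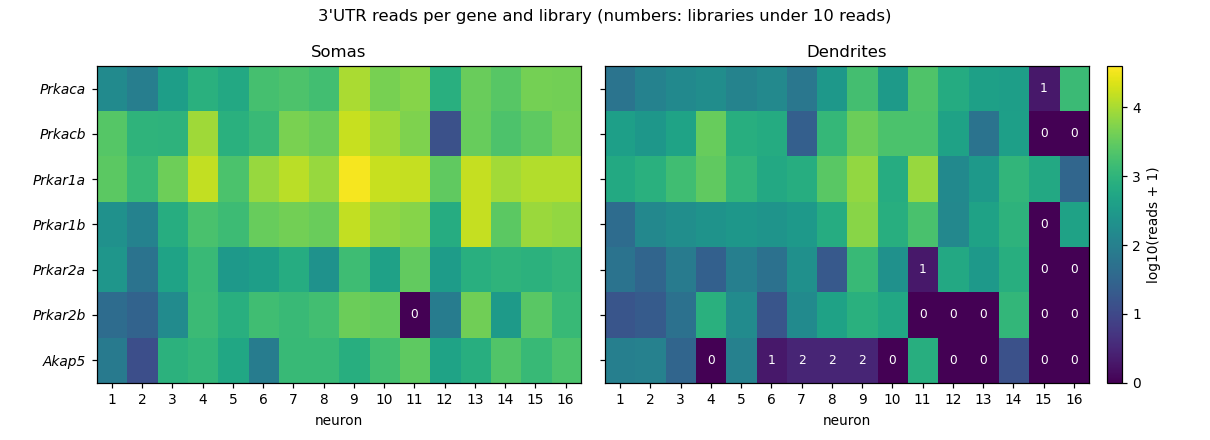
Heatmap of 3′UTR reads on a log10(reads + 1) color scale for the 7 genes (rows) in the somas (left) and dendrites (right) of neurons 1 to 16 (columns), with the read number written in libraries under 10 reads. The left panel has a single entry under 10 reads, 0 reads of Prkar2b in neuron 11, while in the right panel the low entries gather in the Akap5 row and in the columns of neurons 15 and 16.

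The comparison of compartments asked which of these RNAs differed in their share of the library between the dendrites and the soma of the same neuron. Of the 7 genes, 1 was called higher in somas (Akap5) and 0 higher in dendrites by edgeR's quasi-likelihood test at an adjusted p of at most 0.05. Over all 10880 genes, 5.71% were called higher in somas and 0.827% higher in dendrites. That balance depended on the fit, since the shares were 0.818% and 5.42% with the median gene put at 0, 0.708% and 1.44% without the block for neuron and 14.8% and 5.97% by limma, and leaving out neuron 16 alone lowered the somatic share to 1.16%, or 128 genes. At an unadjusted p under 0.05 these shares were 26.7% and 3.55%, and a further member, Prkar1a, was in the somatic group. The median log2 fold change of dendrites over somas (negative means higher in somas) was -1.49 over all genes and -1.03 over the 7 genes, 5 of which lay above the median gene and 2 below it. Differences of the subunits are therefore also given relative to the median gene, since the sign of each subunit gene turned positive, from 0.0028 for Prkar2b to 0.82 for Prkaca, when the libraries were rescaled to put the median gene at 0. Their place relative to the median gene also depended on the fit. Without the block for neuron the median gene was at -0.22. Prkaca (-0.43), Prkar1a (-0.80), Prkar1b (-0.90) and Prkar2b (-0.26) lay below it, and Prkacb and Prkar2a above. By limma the median gene was at -0.84. Prkar1a (-0.88), Prkar1b (-0.86), Prkar2a (-0.93) and Prkar2b (-1.35) lay below it, and Prkaca and Prkacb above.

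**Figure D2:**
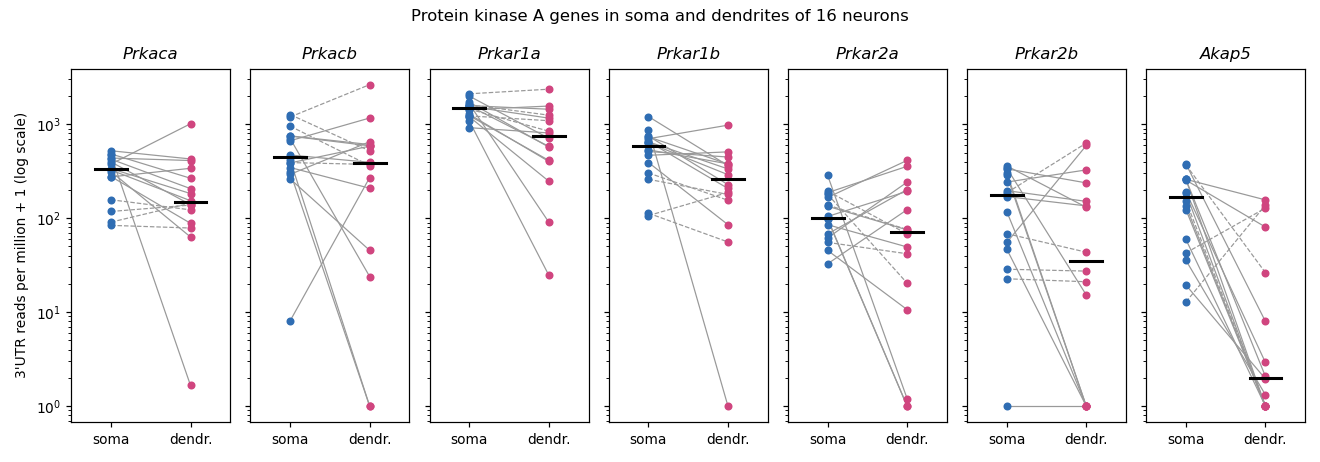
Levels of the 7 genes in CPM + 1 on a log axis in somas (blue) and dendrites (pink), where each line joins the compartments of 1 neuron (dashed lines, neurons with 3 rounds of amplification) and black bars are medians over 16 libraries. The subunit genes overlap widely between compartments, and the Akap5 median is 168 CPM in somas and 1.01 CPM in dendrites.

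Among the catalytic subunits, Prkaca, which encodes the Cα subunit found in most tissues, had a lowest, median and highest level of 0.662, 148 and 1012 CPM in dendrites and 82.9, 330 and 522 CPM in somas. In 12 of 16 neurons the soma was higher, and the ranges of the compartments overlapped. Its log2 fold change was -0.72 (SE 0.62, 95% interval -1.94 to 0.50), or 0.77 above the median gene, with an adjusted p of 0.415 by edgeR's quasi-likelihood test. The lowest and the highest dendrites were those of neuron 15, with 1 read, and of neuron 16, with 1365 reads.

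Prkacb encodes Cβ, a catalytic subunit that is abundant in brain. Its levels were 0, 383 and 2642 CPM in dendrites and 7.10, 443 and 1268 CPM in somas, and 11 of 16 neurons were higher in the soma. The log2 fold change was -0.77 (SE 0.73, 95% interval -2.21 to 0.66, edgeR adjusted p = 0.456), which was 0.72 above the median gene. Neuron 12 ran opposite to most others, with 451 reads in its dendrites and 13 in its soma, and the dendrites of neurons 15 and 16 had 0 reads.

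The type I regulatory subunits were the members with the smallest standard errors. Prkar1a, which encodes RIα, was the most abundant gene of the group in both compartments, with 23.7, 758 and 2362 CPM in dendrites and 919, 1501 and 2110 CPM in somas. The soma was higher in 14 of 16 neurons, the exceptions being neurons 4 and 11. Its log2 fold change of -1.21 (SE 0.46, 95% interval -2.10 to -0.32) did not pass edgeR's test after adjustment (p = 0.0104, adjusted p = 0.0809) and lay 0.28 above the median gene.

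Prkar1b, which encodes the neuronal RIβ, had 0, 258 and 978 CPM in dendrites and 106, 584 and 1207 CPM in somas. Neurons 2, 9 and 14 were higher in dendrites and the other 13 in the soma. The log2 fold change was -1.03 (SE 0.58, 95% interval -2.17 to 0.11, edgeR adjusted p = 0.215), 0.47 above the median gene. DESeq2, the tool used by the study, called both type I genes higher in somas, Prkar1a with an adjusted p of 0.00343 and Prkar1b with 0.0212, where it called 46.2% of all genes higher in somas and 4.26% higher in dendrites.

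The type II regulatory subunits, which bind anchoring proteins, had the lowest median levels of the subunit genes in dendrites. Prkar2a (RIIα) had 0, 70.6 and 412 CPM in dendrites and 31.7, 101 and 285 CPM in somas, and 10 of 16 neurons were higher in the soma. Its log2 fold change was -0.91 (SE 0.98, 95% interval -2.84 to 1.01, edgeR adjusted p = 0.513), 0.58 above the median gene. On exon counts the sign was opposite, 0.43 with an adjusted p of 0.853.

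Prkar2b encodes RIIβ, a major regulatory subunit of forebrain neurons. Its levels were 0, 34.4 and 630 CPM in dendrites and 0, 177 and 360 CPM in somas. Its log2 fold change was -1.50 (SE 1.05, 95% interval -3.55 to 0.55, edgeR adjusted p = 0.311), close to that of the median gene. Neurons differed in direction. Prkar2b was higher in the dendrites of neuron 4 (630 CPM against 185 in the soma), neuron 10 (326 against 242) and neuron 14 (593 against 54.2), while the dendrites of neurons 12, 13, 15 and 16 had 0 reads and their somas 84, 4001, 2647 and 1278. In neuron 11 it had 0 reads in either compartment, which allows a level of up to 0.604 CPM in the dendrites and 0.272 CPM in the soma at a limit of 3 reads (counting error only), and the exon counts there were 1 and 0.

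Leaving out 1 neuron moved each subunit value by over 1.5 times, and none of these values was called. Prkaca was at -0.26 without neuron 15. Prkacb was at -0.27 without neuron 15 and without neuron 16, at -0.39 without neuron 13 and at -0.49 without neuron 1. Prkar1a was at -0.74 without neuron 16 and -0.75 without neuron 12, and Prkar1b at -0.55 without neuron 15 and -0.66 without neuron 12. Among the type II genes, Prkar2a was at -0.40 without neuron 15 and without neuron 16, and Prkar2b was between -0.95 and -0.94 without neuron 12, 13, 15 or 16. The dendrites of neurons 12, 15 and 16 were those with the fewest genes of at least 10 reads, 3794, 1570 and 2485.

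Akap5, the scaffold that brings protein kinase A, protein kinase C and calcineurin to the postsynaptic membrane, was the member that differed. Its levels were 0, 1.01 and 156 CPM in dendrites and 11.8, 168 and 377 CPM in somas. Somas were higher in 14 of 16 neurons, and the ranges overlapped through neurons 1, 2, 3, 5 and 11. The log2 fold change was -6.13 (SE 1.36, 95% interval -8.80 to -3.46, edgeR adjusted p = 0.0117), and relative to the median gene it was -4.64. It was called in each of the 16 fits that left out 1 neuron, from -6.55 to -5.45, and in the fit without neurons 15 and 16, which called 1.68% of all genes higher in somas. Without the block for neuron the value was -2.35 with an adjusted p of 0.170, and 0.708% of all genes were called higher in somas.

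Akap5 reads were unevenly spread over the dendrites. The dendrites of neurons 1, 2, 3, 5, 11 and 14 held 95, 104, 31, 103, 773 and 13 reads, and those of the other 10 neurons held 0 to 2 reads while their somas held 83 to 2020. Neurons 1 and 2 were higher in dendrites than in the soma (127 against 41.7 CPM and 137 against 11.8 CPM). The 6 dendrite libraries with at least 10 Akap5 reads held 646521 to 5471399 reads in all and 4781 to 9871 genes with at least 10 reads, and the other 10 held 863104 to 6954420 reads and 1570 to 7392 such genes. Akap5 in the somas was at 11.8 to 377 CPM (median 256) and at 18.4 to 258 CPM (median 143). The part of library content in the Akap5 values was not tested. At least 10 Akap5 reads were found in 3 of the 4 dendrites with 3 rounds of amplification and in 3 of the 12 with 2 rounds. Rounds cannot be told apart here from culture or day. The log2 fold change was -1.14 (SE 1.98, edgeR adjusted p = 0.962) in the neurons with 3 rounds and -7.11 (SE 1.53, edgeR adjusted p = 0.0133) in those with 2 rounds, where 0.00758% and 2.88% of genes were called higher in somas. The difference between these values, 5.74 (SE 3.27), did not pass edgeR's test of the interaction (p = 0.0858, adjusted p = 1). That test called 0 of 10880 genes, with 288 (2.65%) at an unadjusted p under 0.05, and p-values of the other 6 members ran from 0.177 to 0.740.

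**Figure D3:**
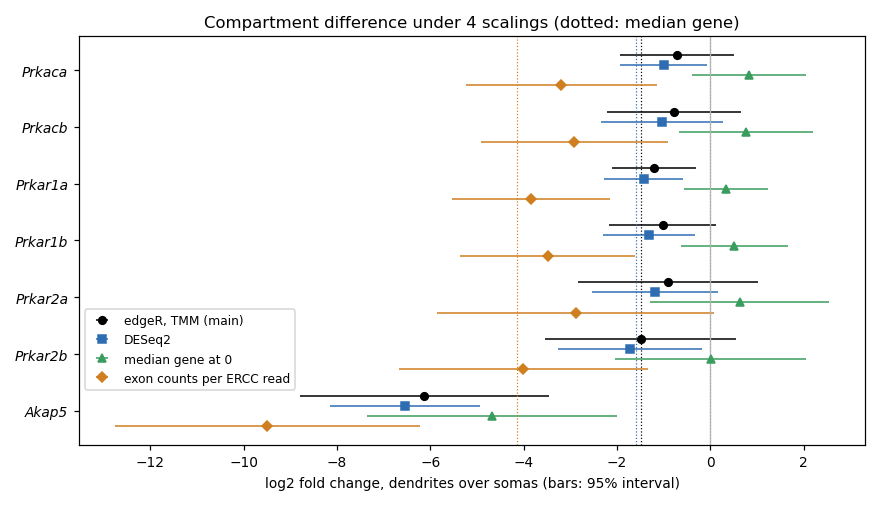
Log2 fold change of dendrites over somas for the 7 genes under 4 scalings, with bars of the 95% interval and dotted lines at the median of all genes under each scaling (for the rescaling to the median gene, the bars are those of the main fit and the median is 0). Per ERCC read the subunits run from -4.01 for Prkar2b to -2.89 for Prkar2a, all above the median gene at -4.15, and Akap5 lies below the median gene under each of the 4 scalings.

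The values above are shares of a library. ERCC spike-ins, synthetic RNAs added at 1 dilution, are labelled for neurons 3 to 16, and exon counts were also scaled by the spike-in reads. On that scale 64.4% of genes were called higher in somas with a median log2 fold change of -4.15, and 6 of the 7 members were called higher in somas, with Prkar2a, whose exon counts miss most of its reads, the exception.

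The dendritic read fraction, a neuron's dendritic CPM divided by the sum over its compartments, describes each gene neuron by neuron. Its median was 0.40 for Prkaca, 0.44 for Prkacb, 0.32 for Prkar1a, 0.34 for Prkar1b, 0.36 for Prkar2a, 0.41 for Prkar2b and 0.0095 for Akap5, against 0.26 for the median gene. Its variance over neurons was lowest for Prkar1b (0.0255), Prkar1a (0.0257) and Prkaca (0.0327) and higher for Prkacb (0.0771), Akap5 (0.0831), Prkar2b (0.0857) and Prkar2a (0.0873), all under the 0.106 of the median gene. The median gene reached 10 reads in only 6 dendrites, and Akap5 had 0 to 2 reads in 10 dendrites. The part of read depth in these variances was not tested.

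Complete sets of subunit RNAs were found in many but not all dendrites. All 7 genes had at least 10 reads in the dendrites of neurons 1, 2, 3, 5 and 14, and 6 of the 7 in the dendrites of neurons 4, 6, 7, 8, 9 and 10. In the latter only Akap5 was missing, so the subunit genes were complete in the dendrites of all these neurons. Neurons 11, 12 and 13 had 5. The dendrites of neuron 16 had 3, namely Prkaca with 1365 reads, Prkar1b with 450 and Prkar1a with 32, and those of neuron 15 had only Prkar1a with 606 reads, beside 1 read of Prkaca. In somas all 7 genes were found in 15 of the 16 neurons.

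Levels of different genes were compared on the leading 3′ end feature of each gene, which covers the last 500 nt of that end. Ends closer than 500 nt were merged, so a feature can be longer, and feature lengths were not checked. For Prkar2a, which divided its reads over 2 ends, this comparison counts end 1 alone. On all its 3′UTR reads it was above Prkar2b in dendrites (medians of 70.6 and 34.4 CPM). In dendrites the median levels were 713 CPM for Prkar1a, 379 for Prkacb, 241 for Prkar1b, 148 for Prkaca, 34.4 for Prkar2b, 16.5 for Prkar2a and 0.475 for Akap5. The order in each compartment was taken from these same libraries, and the p-values of neighbours do not allow for that choice of pairs. Only the step from Prkar1a to Prkacb passed the test between neighbours in this order (mean difference 1.70 ± 2.58 on the log2(CPM + 1) scale, SD, n = 16, two-sided exact permutation test by sign flips, p = 0.00952, adjusted over 12 neighbour pairs p = 0.0381). In somas the order was Prkar1a (1442 CPM), Prkar1b (543), Prkacb (439), Prkaca (330), Prkar2b (173), Akap5 (141) and Prkar2a (50.9). There Prkar1a was above Prkar1b in 15 of 16 neurons (exact permutation test, adjusted p = 0.000732) and Prkaca above Prkar2b in 13 of 16 (exact permutation test, adjusted p = 0.0103), and the remaining neighbours did not differ beyond their spread.

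Type I regulatory RNA made up the largest share of subunit reads in both compartments. Its median share of the reads on the 6 subunit genes was 55.0% in dendrites (14.4% to 99.8%) and 62.3% in somas (50.9% to 75.1%). The catalytic genes made up 30.4% in dendrites (0.165% to 73.9%) and 27.2% in somas (16.2% to 44.0%), and the type II genes 9.39% (0% to 40.1%) and 8.90% (3.33% to 18.1%). The medians of the compartments lay close together, with a wider spread in dendrites. The summed level of the 6 genes was 402 to 5968 CPM in dendrites (median 1870) and 2458 to 4045 CPM in somas (median 3156).

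The ratio of paralogues within a library does not depend on the scaling between libraries, so it was used to ask whether compartments differed in their choice of subunit. The log2 ratio of Prkacb to Prkaca was 0.28 ± 3.73 in dendrites and 0.65 ± 2.28 in somas (SD, n = 15 neurons), a difference of -0.37 ± 3.75. That of Prkar1b to Prkar1a was -1.76 ± 2.95 in dendrites and -1.63 ± 1.08 in somas (n = 16), a difference of -0.13 ± 2.93. That of Prkar2b to Prkar2a was -0.99 ± 4.41 in dendrites and 0.40 ± 1.96 in somas (n = 13), a difference of -1.39 ± 4.38. None of the 3 differences passed a two-sided exact permutation test by sign flips (p = 0.771, 0.907 and 0.300, adjusted p = 0.907, 0.907 and 0.900). The SD over neurons was larger in dendrites than in somas for each ratio. The dendrites of neuron 16 set the lowest Prkacb to Prkaca ratio (-11.42) and those of neuron 15 the lowest Prkar1b to Prkar1a ratio (-10.24). Prkacb and Prkar1b had 0 reads there, as Prkar2b had in the dendrites of neurons 12 (-10.22) and 13 (-9.22). These 4 values rest on the 0.5 read added to each count and are not measured ratios. Without neurons 15 and 16 the differences of the first 2 ratios were 0.43 ± 2.20 and 0.22 ± 1.04 (SD). The difference for Prkar2b to Prkar2a was -0.55 without neuron 13, -0.82 without neuron 12 and -2.78 in the neurons with 2 rounds, and it did not pass the test in any of these.

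**Figure D4:**
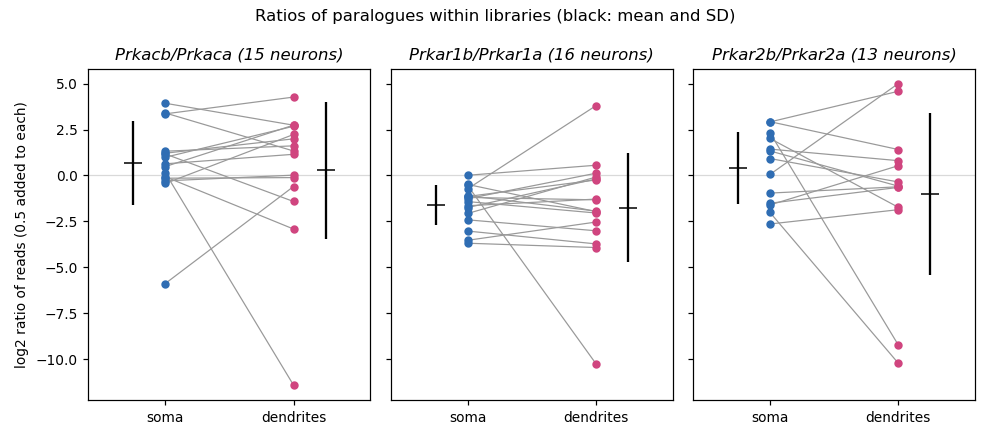
Log2 ratio of reads between paralogous subunit genes (0.5 read added to each count) in the soma and the dendrites of each neuron, joined by lines, with mean and SD in black beside the points. The means of the compartments differ by 0.37, 0.13 and 1.39, less than the SD of the differences between neurons, and the dendrite points spread more widely.

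Alternative 3′ ends of a gene can carry different localization signals, and 4 members had a second end with enough reads to compare. Prkaca, Prkar2b and Akap5 have 1 annotated end each, Prkacb and Prkar2a have 2, Prkar1b has 3 and Prkar1a has 4. The features are numbered in the table without positions, so which end is proximal is not stated here. End 1 held over 98% of the reads of Prkacb, Prkar1a and Prkar1b in each compartment.

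Of these 4 genes, 2 had a p under 0.1 in the exact signed-rank test of the share of end 1 over neurons, where 8.44% of the 3508 genes tested did and 0 passed after adjustment. For Prkar1a the share of end 1 was 99.8% ± 0.609 in dendrites and 99.5% ± 1.00 in somas (SD, n = 16), higher in dendrites in 14 neurons and lower in 1 (exact signed-rank test, two-sided, p = 0.000305, adjusted p = 0.285). End 2 had 0 reads in 12 of 16 dendrites and in 1 of 16 somas. Over all libraries it held 0.143% of the reads on Prkar1a ends in dendrites and 0.317% in somas. The median Prkar1a count was 784.5 reads in dendrites (lowest 32) and 10556 in somas. At such shares a library of few reads can hold 0 reads of end 2. The part of depth in this test was not tested. For Prkacb end 2 had 0 of 15601 reads in dendrites, which allows a share of up to 0.0192%, and 458 of 65520 in somas, or 0.699%, of which 437 came from neuron 9 (exact signed-rank test, p = 0.0625, adjusted p = 0.949). For Prkar1b the same test gave p = 0.241.

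Prkar2a was the member that used both of its ends. End 1 took 0% to 100% of the reads on the 2 ends in 13 dendrites (median 51.0%) and 27.9% to 100% in 16 somas (median 77.4%). Over all libraries the 2 ends held 11959 of its 16449 3′UTR reads. In the dendrites of neuron 9 they held 94 and 235 of 1261 reads, and in those of neuron 14 they held 71 and 142 of 767. Over the 13 neurons with at least 10 reads on the ends in each compartment, the share was 56.0% ± 36.3 in dendrites and 69.1% ± 28.1 in somas, a difference of -13.1 ± 28.7 percentage points (SD), with 4 neurons higher in dendrites and 8 lower (exact signed-rank test, two-sided, p = 0.110, adjusted p = 1). As a fraction, the difference was -0.076 without neuron 5 (same test, p = 0.206). It was -0.16 without neuron 3 (p = 0.0322) and -0.15 without neuron 6 (p = 0.0537), both under the 0.1 used here. Neurons varied widely. Neurons 8 and 12 lay between 98.5% and 100% in both compartments, neurons 9 and 14 between 28.6% and 33.3%, and neurons 4 and 5 fell from 82.0% and 92.1% in the soma to 17.6% and 12.0% in dendrites. Some of these shares rest on few reads. On ends 1 and 2 the dendrites of neuron 4 held 3 and 14 reads, and those of neuron 5 held 6 and 44.

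**Figure D5:**
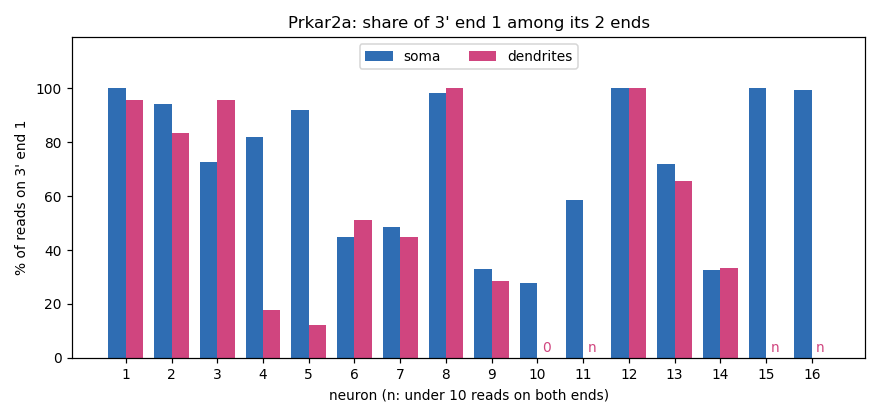
Share of Prkar2a reads on 3′ end 1, in percent of the reads on its 2 ends, for the soma (blue) and dendrites (pink) of each neuron, where n marks dendrites with under 10 reads on the ends. The share runs from 27.9% to 100% in somas and from 0% to 100% in dendrites, with large gaps between compartments in neurons 4, 5 and 10.

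Prkar2a was also the gene whose value depended on the annotation. Over the 32 libraries its exon count was 4910 reads, or 29.8% of the 16449 reads on its 3′UTRs, where the other members had 100% to 106%. The exon count followed end 2 (Spearman correlation 0.98 over 32 libraries) and not end 1 (0.33), and the sum of end 2 was 4492 reads. The Prkar2a log2 fold change on exon counts, 0.43, rests on these reads.

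The kinase acts with other genes of the cAMP pathway, of which 76 were listed in 7 groups and 62 entered the comparison. By edgeR's quasi-likelihood test 2 of the 62 were called higher in somas, or 3.23% where 5.71% of all genes were, and 0 higher in dendrites, where 0.827% of all genes were. At an unadjusted p under 0.05 there were 11 and 1, where 26.7% and 3.55% of all genes passed, and DESeq2 called 21 and 4, where it called 46.2% and 4.26% of all genes. Their median log2 fold change was -0.85, which is 0.64 above the median gene, and 38 of the 62 lay above it. The genes called were Gnai3, an inhibitory G protein subunit (-5.01, SE 1.58, adjusted p = 0.0453), and Akap8l, a nuclear anchoring protein (-4.99, SE 1.47, adjusted p = 0.0356). Akap8l reached 10 reads in 1 of 16 dendrites (median 0 CPM) and 11 somas (median 6.70 CPM), and Gnai3 in 4 dendrites (median 0.478 CPM) and 14 somas (median 31.5 CPM). Both calls were lost without neurons 15 and 16 and in 9 of the 16 fits that left out 1 neuron.

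Upstream of the kinase, none of the 5 adenylyl cyclases tested, which make cAMP, was called. The most abundant were Adcy1, which calcium activates, with medians of 333 CPM in dendrites and 363 CPM in somas, and Adcy5, with 95.3 and 46.5 CPM. Gnas, the stimulatory G protein, was far more abundant, with medians of 3704 and 4481 CPM and a log2 fold change of -0.29 (SE 0.31, edgeR adjusted p = 0.501). The inhibitory Gnai1 had 169 and 487 CPM, with a higher soma in 15 of 16 neurons and a log2 fold change of -1.96 (SE 0.65, edgeR adjusted p = 0.0560).

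Among the genes that limit the signal, 0 of 13 phosphodiesterases, which break down cyclic nucleotides, and 0 of 3 heat-stable kinase inhibitors were called. Pde4d had medians of 183 CPM in dendrites and 250 CPM in somas, and Pde1a had 43.8 and 0.972 CPM with a log2 fold change of 2.54 (SE 1.87, edgeR adjusted p = 0.337). Pkia, an inhibitor that binds the free catalytic subunit, had 135 and 123 CPM and Pkig 25.0 and 40.2 CPM.

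Of the 19 other anchoring proteins tested, 1 was called higher in somas (Akap8l, above), or 5.26%. Among the most abundant of them, Akap6 had medians of 163 CPM in dendrites and 189 CPM in somas with a log2 fold change of 0.055 (SE 0.66, edgeR adjusted p = 0.961), and Akap11 had 183 and 135 CPM with -0.51 (SE 0.88, edgeR adjusted p = 0.696). The median log2 fold change of these 19 genes was -1.49, equal to that of all genes. Map2, whose protein anchors type II kinase on dendritic microtubules, was named beside the lists and is not in their counts. It was called higher in dendrites with 2302 CPM against 366 in somas at the median (log2 fold change 2.66, SE 0.49, edgeR adjusted p = 0.00202), in 14 of 16 neurons.

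Of 3 genes listed as other cAMP receptors or related kinases, 2 were tested and 0 called. Rapgef4, a guanine nucleotide exchange factor opened by cAMP, had medians of 81.2 and 76.6 CPM in dendrites and somas, and Prkx, a related kinase, had 7.11 and 20.6 CPM. Prkx reached 10 reads in 8 dendrites and 13 somas. Of the 14 targets and co-activators tested 0 were called, the most abundant being the phosphatase regulators Ppp1r2 with 234 and 425 CPM and Ensa with 191 and 152 CPM.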

How the data were processed

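Per the labels and the paper's methods, the authors removed adapters and poly-A, aligned reads to mm10 with STAR (2.4.0 in the submitters' processing notes) and counted uniquely mapped reads by strand with VERSE. The deposited values are raw read counts, not normalized, on the combined 3′UTRs of each gene, on individual 3′ ends (last 500 nt, closer ends merged) and on exons with 92 ERCC spike-ins. The reads carry no molecular identifiers, so limits from counts cover counting error only.

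Genes were compared with edgeR 4.0.16 (TMM on the genes tested, robust quasi-likelihood test, Benjamini-Hochberg adjustment over 10880 genes) with neuron as a block in R 4.3.3. DESeq2 1.42.0 and limma 3.58.1 were alternatives, and other values came from Python 3.11 with SciPy 1.17.1. A standard error is the log2 fold change divided by the root of F, and a 95% interval is the normal one. Both compartments of a number come from 1 cell, and after removal of compartment means they correlated at 0.0854 ± 0.0766 (SD, n = 16), against -0.00527 ± 0.0529 (SD, n = 240) for different neurons. Of 496 pairs of libraries, 0 held identical counts. The tests were checked on simulated data.

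The members and lists were chosen with earlier results of these data known. Named genes were all members and, from each cAMP list, every gene called and the 2 with the highest mean CPM. Map2 was added to these by name. For likeness of pattern the 3 genes with the highest correlation with the member found in most libraries were named. GENCODE locations are on GRCm38, the assembly of mm10. Protein sequences and the positions of the 3′ ends were not used here.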

Additional observations from a re-analysis of the deposited data

How the results depend on the processing

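The call of Akap5 as higher in somas was lost without the block for neuron and in the 4 neurons with 3 rounds alone. The number of members called higher in somas, 1, was 0 with no replicate block, 0 in the neurons with 3 rounds, 2 with DESeq2's size factors in edgeR, 3 by DESeq2 and 6 on exon counts per ERCC read, and it was 1 in the other alternatives, each fit without 1 neuron included. Of the members, 0 were called higher in dendrites in any of the 28 alternatives. Adjusted p-values of Akap5 ran from 0.00508 to 0.0257 when 1 neuron was left out.

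With the median gene put at 0 the log2 fold changes were 0.82 (Prkaca), 0.77 (Prkacb), 0.33 (Prkar1a), 0.51 (Prkar1b), 0.62 (Prkar2a) and 0.0028 (Prkar2b). In the neurons with 3 rounds they were 0.24 for Prkaca and 0.33 for Prkar2b, and on exon counts 0.43 for Prkar2a. None of these passed the test.

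The 2 cAMP pathway genes called higher in somas became 0 with no replicate block, with either other filter on low counts, with the median gene at 0, on exon counts, in neurons of 2 or of 3 rounds alone and without neurons 15 and 16, 4 by limma (14.8% of all genes), 21 by DESeq2 (46.2%) and 33 per ERCC read (64.4%), and 0 to 3 with 1 neuron left out. Of these genes 0 were called higher in dendrites, against 4 by DESeq2 (4.26% of all genes), 4 with the median gene at 0 (5.42%), 2 by limma (5.97%), 1 with DESeq2's size factors (0.744%), 1 on exon counts (1.0%), 1 per ERCC read (0.126%) and 0 to 1 with 1 neuron left out.

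The ratio of Prkacb to Prkaca ran from -0.77 to 0.43 with 1 neuron left out, with 0.43 without neuron 16, and that of Prkar1b to Prkar1a from -0.44 to 0.51, with 0.51 without neuron 15, and that of Prkar2b to Prkar2a from -1.92 to -0.55. Without both neurons, an alternative chosen after seeing the data, the differences were 0.43 and 0.22. No paralogue ratio passed its test under any alternative. The number of members with a p under 0.1 for 3′ end usage, 2, ran from 1 to 4 with 1 neuron left out, with 4 without neuron 6 and 1 without neurons 2, 4, 7, 9 or 10. The causes of these changes were not tested. Other alternatives chosen after seeing the data, the ratios without pairing and detection from 1 read, kept the direction of each ratio and moved the number of detections in dendrites over all members from 90 to 96, with Akap5 from 6 to 10.

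Precision was limited by the spread between neurons, which left 95% intervals of -3.55 to 0.55 for Prkar2b, and by depth in dendrites, where a level under 3 reads could not be told from 0.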

Other observations

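Prkar1a and Prkaca had reads in all 32 libraries, and Prkar1a, the more abundant, was compared with every gene tested by the Pearson correlation of log2(CPM + 1) over the libraries, which share neurons, depth and the difference between compartments. The genes most like it were Rnf14, a ubiquitin ligase (0.89), Got1, the cytosolic aspartate aminotransferase (0.89), and Dnaja1, a co-chaperone (0.88). Among the members the correlation with Prkar1a was 0.60 for Prkacb, 0.59 for Akap5, 0.56 for Prkar2b, 0.25 for Prkar1b, 0.25 for Prkar2a and -0.048 for Prkaca.

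The pseudogene Prkaca-ps1 had 58 reads in all, in 4 libraries, of which 55 lay in the dendrites of neuron 1, where Prkaca itself also had 58 reads.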
